A study of Homo sapiens with 4 samples.

Results

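The sirtuins SIRT1 to SIRT7 were followed in poly-A+ RNA-seq of A549 cells as the lines of the raw count table whose gene symbol is one of these names. All 7 were found, among 23340 lines with a gene symbol (23368 lines in all), and all 7 passed the filter on low counts and were tested. The members were chosen by gene name, with earlier results of these data already known.

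Sirtuins remove acetyl and longer acyl groups from lysines of proteins, and they consume NAD+ as a co-substrate in each reaction, releasing nicotinamide. This ties their activity to the supply of NAD+, which cells make from tryptophan, nicotinic acid or recycled nicotinamide and can phosphorylate to NADP+. SIRT1, SIRT6 and SIRT7 work mainly in the nucleus, SIRT2 mainly in the cytosol, and SIRT3, SIRT4 and SIRT5 in mitochondria. SIRT1 is also known as a partner of the circadian clock, under which NOCT is expressed with a daily rhythm. NOCT (Nocturnin) removes the 2′ phosphate of NADP+ and NADPH, which gives NAD+ and NADH.

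The table holds 4 libraries of A549, a human line grown out of a lung carcinoma. The libraries WT 1 and WT 2 come from WT cells, and clone 4 and clone 5 are NOCT knockouts with the numbers of their sample names. All 4 were grown in RPMI with serum, harvested before confluence and sequenced after oligo-dT enrichment. The clones were made with a lentivirus that carries Cas9 and a guide to NOCT, selected with puromycin, and each grown from 1 cell by limiting dilution. Whether the WT cells passed through virus, drug or dilution is not stated here by paper or labels, so the knockout cannot be told apart from these steps, nor a clone's own history from its genotype. The labels do not say whether WT 1 and WT 2 were separate cultures, and each clone is 1 library, so p-values measure only the spread between these libraries. NOCT, listed as CCRN4L, was at 20.8 CPM for WT 1, 20.1 CPM for WT 2, 29.3 CPM for clone 4 and 15.6 CPM for clone 5, where CPM are counts per 1000000 counts of the library after TMM scaling. A small edit in the DNA can leave the mRNA in place, so this level does not check the knockout labels.

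Depth was 36873556 counts in clone 4, the lowest of the 4, and 40938066 to 41963070 in the others. The keratins KRT8 and KRT18 stood at 721 CPM or more in every library, while KRT19 was at 0 counts in all 4 and EPCAM had at most 0.166 CPM. Of 8 alveolar markers, 6 were at 0 in every library, the 5 surfactant genes among them. Markers of other cell types summed to 202, 221, 42.3 and 223 CPM for WT 1, WT 2, clone 4 and clone 5, with 9 of 16 at 0 in every library, PTPRC and PECAM1 included. COL3A1, a collagen chain, made nearly all of that sum (187, 206, 26.7 and 199 CPM). The epithelial markers summed to 1669, 1864, 2584 and 1499 CPM in the same order, which KRT8 and KRT18 carried. CDH1, the epithelial cadherin, went the other way and was lowest in clone 4 (16.4, 18.4, 11.2 and 15.8 CPM; log2 WT over clone 4 0.63, adjusted p = 0.029 from edgeR). Clone 4 thus stood apart from the other 3 libraries in both sums, and the part of this in any result below was not tested.

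SIRT1 and SIRT2 were the members that edgeR called between the clones, though not in every alternative fit. SIRT4 was the member with the lowest mRNA level. The promoters of these 3 members are shown. Each runs from 250 bases before to 50 bases after a RefSeq start site, 5′ to 3′ on the gene's strand. The RefSeq table is of GRCh38.p14, and the positions given are of the identical sequence in hg19. Capitals mark matches, on either strand and with overlaps counted separately, to any of 5 motifs. The first is the E-box, spelled CACGTG. The SP1 box, which is searched on both strands in the same way, is spelled GGGCGG. The CCAAT box is spelled as it is named. The core of the site for the factor NRF1 is spelled GCATGCGC, and the cAMP response element is spelled TGACGTCA.
SIRT1 promoter (chr10:69644164-69644463, plus strand): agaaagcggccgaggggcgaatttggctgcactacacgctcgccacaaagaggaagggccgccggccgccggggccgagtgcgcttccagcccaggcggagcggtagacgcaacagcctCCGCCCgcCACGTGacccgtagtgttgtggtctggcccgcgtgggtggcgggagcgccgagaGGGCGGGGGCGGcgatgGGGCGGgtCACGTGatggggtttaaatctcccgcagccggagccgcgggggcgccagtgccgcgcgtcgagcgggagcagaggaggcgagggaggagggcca
SIRT2 promoter (chr19:39390209-39390508, minus strand): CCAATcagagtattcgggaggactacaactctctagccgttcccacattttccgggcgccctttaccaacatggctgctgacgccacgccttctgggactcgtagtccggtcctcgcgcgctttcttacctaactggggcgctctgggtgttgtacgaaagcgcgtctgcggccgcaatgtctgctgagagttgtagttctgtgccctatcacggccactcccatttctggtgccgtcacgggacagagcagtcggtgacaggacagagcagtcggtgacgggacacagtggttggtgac
SIRT4 promoter (chr12:120739874-120740173, plus strand): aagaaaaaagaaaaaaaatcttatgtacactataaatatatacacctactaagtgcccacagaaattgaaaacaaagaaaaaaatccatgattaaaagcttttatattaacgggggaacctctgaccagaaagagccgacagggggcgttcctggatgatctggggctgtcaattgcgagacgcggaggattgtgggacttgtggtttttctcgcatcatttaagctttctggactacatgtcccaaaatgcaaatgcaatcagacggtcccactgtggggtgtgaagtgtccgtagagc

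The SIRT1 promoter held 2 E-boxes, letters that 7.26% of 35116 promoters in the table hold at least once, and 4 SP1 boxes, found at least once in 45% of them. E-boxes are the letters bound by CLOCK and BMAL1 and by MYC, and SP1 boxes those bound by SP1. Its GC content was 72.7% and its observed over expected CpG ratio 1.03, higher than in 93.6% of promoters. The SIRT2 window held 1 CCAAT box at its outer end, which 34.6% of promoters hold, with a GC content of 58.7% and a CpG ratio of 0.891. Its start site lies 244 bases inside the gene as annotated, so nearly all of the window is within the gene. Bases further upstream were not searched. The SIRT4 window held none of these letters, with a GC content of 42.3% and a CpG ratio of 0.679, against medians over all promoters of 58.7% and 0.579. A second SIRT4 start site in the table, far upstream of the annotated gene start, had 1 cAMP response element, which 1.85% of promoters hold. The windows of SIRT3, SIRT5 and SIRT6 are not printed. Each of these held an SP1 box, and windows of SIRT5 and SIRT6 also held the NRF1 core, which 3.05% of promoters hold. SIRT7 had no entry. Whether any factor binds these letters in A549 was not measured, and no match says only that the letters are not in the window.

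SIRT1 was the most abundant sirtuin mRNA in each of the 4 libraries and SIRT4 the least abundant. In these bulk libraries, fewer cells with a transcript and less of it per cell cannot be told apart. To compare genes, CPM were divided by the kilobases of all annotated exons of the gene (CPM per kb). On this scale the WT mean was 31.2 ± 0.22 for SIRT1, 5.69 ± 0.41 for SIRT6, 3.18 ± 0.03 for SIRT3, 2.83 ± 0.07 for SIRT7, 2.43 ± 0.02 for SIRT2, 0.695 ± 0.080 for SIRT5 and 0.293 ± 0.031 for SIRT4 (SD, n = 2 libraries each). With this length SIRT1 was at 5.48 times the level of the next member and 106 times that of SIRT4. Among 12579 tested genes with a length, SIRT1 stood above 89.1% in WT, SIRT6 above 51.3% and SIRT4 above 9.51%.

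The order of the middle members differed between libraries. Over the 4 libraries SIRT3 ranged from 2.42 to 3.20 CPM per kb, SIRT7 from 2.43 to 2.88 and SIRT2 from 1.99 to 3.53, so the ranges of these 3 neighbours overlapped over the 4 libraries, though not within the WT pair, while SIRT6, at 4.82 to 6.56, lay above them in every library. The length used also set the order. With the canonical transcript, an alternative chosen after the data were seen, WT levels were 10.1 CPM per kb for SIRT7, 9.78 for SIRT6, 8.09 for SIRT2 and 6.12 for SIRT3. With the longest transcript they were 9.78 for SIRT6, 6.12 for SIRT3, 5.05 for SIRT7 and 3.18 for SIRT2. SIRT1 was at 34.7 CPM per kb with either of these transcripts, so its ratio to the next member was smaller than with all exons. SIRT1 remained first, SIRT5 sixth and SIRT4 last with each of the 3 lengths.

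**Figure D1:**
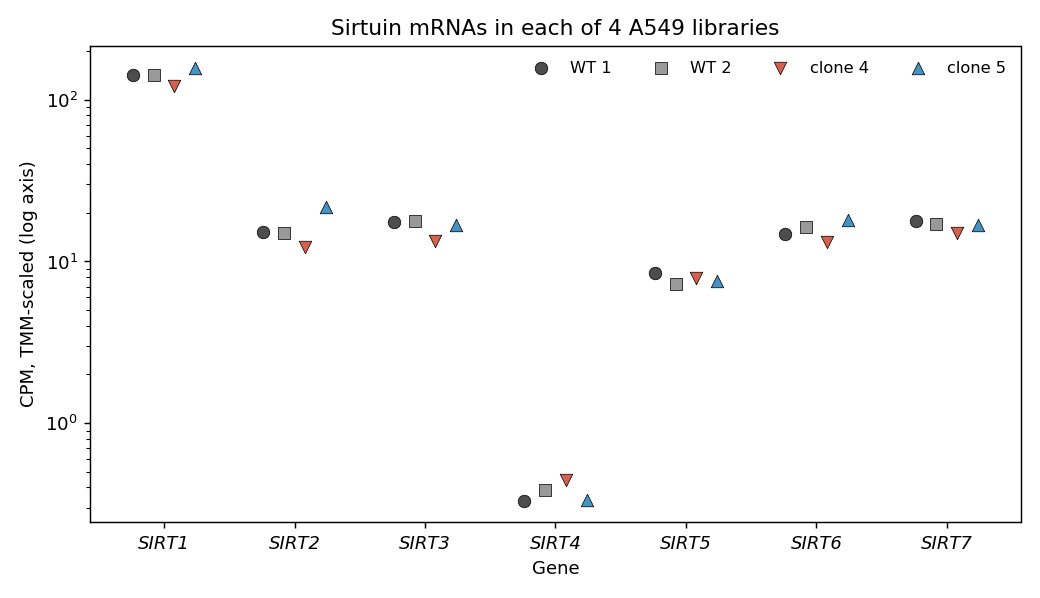
CPM on a log axis for each sirtuin, with 1 point for each of the 4 libraries (WT 1, WT 2, clone 4 and clone 5). SIRT1 lies between 123 and 158 CPM, SIRT4 under 0.45 CPM, and the 5 others between 7.22 and 21.9 CPM.

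No sirtuin passed the test between WT and NOCT-KO, and no gene did. With edgeR's quasi-likelihood test, adjusted by Benjamini-Hochberg over 13143 genes, 0 of 7 sirtuins passed at 0.05, beside 0 of all genes (0%), and the sirtuins' adjusted p were 0.971 or more. At an unadjusted p under 0.05 there were 0 of 7 sirtuins and 553 of all genes, and DESeq2 called 0 sirtuins and 42 genes and limma-voom 0 sirtuins. The log2 ratios of WT over NOCT-KO ran from -0.19 for SIRT2 to 0.22 for SIRT3, with a median of 0.02 over the 7 members and 0.00 over all genes. The intervals were wide, since the 2 clones differed more than the WT pair did: the SD of the log2 ratio over 10048 genes of at least 5 CPM was 0.55 between the clones and 0.176 between WT 1 and WT 2. Each clone was therefore also set against WT in a fit with 3 groups, which takes the spread of a clone from the WT pair. In that fit 0 of 7 sirtuins passed for WT against clone 4, where 11.4% of all genes did, and 0 of 7 for WT against clone 5, where 3.51% did. At an unadjusted p under 0.05 there were 2 of 7 for clone 4 (SIRT1 and SIRT3), beside 3121 of all 13143 genes. For clone 5 there was 1 of 7 (SIRT2), beside 2056 of all genes. DESeq2 and limma-voom called 0 sirtuins in both.

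Between the clones 2 of 7 sirtuins passed, SIRT1 and SIRT2, beside 13.1% of all genes, and both stood higher in clone 5. WT lay between the clones for both. The no-filter fit called 0 of the 7, and DESeq2 called SIRT2 only. The comparisons with each clone share the WT pair, so their values are given side by side below for each member.

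**Figure D2:**
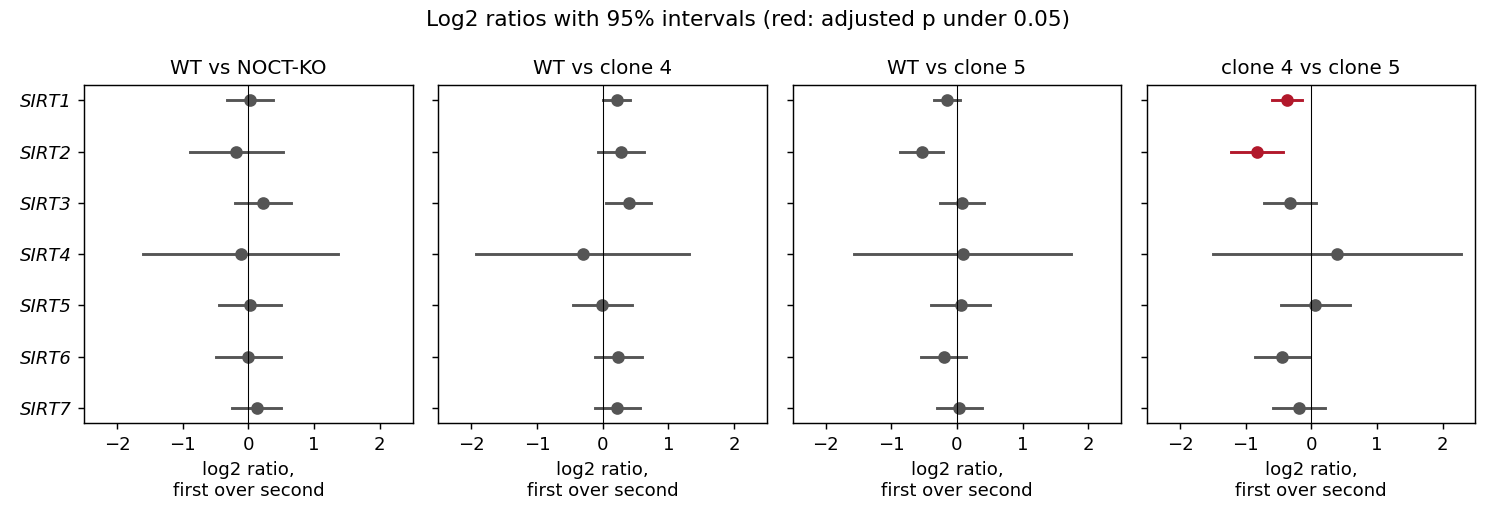
Log2 ratios (points) and 95% intervals (bars) of each sirtuin in the 4 comparisons, with the group named first over the group named second. The intervals of SIRT1 and SIRT2 lie below 0 between clone 4 and clone 5 (red, adjusted p under 0.05), and every sirtuin's interval for WT against NOCT-KO includes 0.

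SIRT1 deacetylates histones and transcriptional regulators such as FOXO proteins and PGC-1alpha. The gene lies on chromosome 10 of hg19 from 69644414 to 69678147 on the plus strand, with 9 exons in its canonical transcript. It had 6034 counts (143 CPM) for WT 1, 5888 (142 CPM) for WT 2, 4420 (123 CPM) for clone 4 and 6584 (158 CPM) for clone 5. The WT libraries were nearly level, clone 4 lay below both and clone 5 above both. Clone 5 had 1.29 times the level of clone 4 (95% interval 1.10 to 1.52; log2 clone 4 over clone 5 -0.37, SE 0.11, adjusted p = 0.0375 by the quasi-likelihood test of edgeR). This is not a large difference among these genes, as 32.9% of all genes tested differed more between the clones. Against WT the log2 ratio was 0.22 for WT over clone 4 (SE 0.09, adjusted p = 0.182 from edgeR) and -0.15 for WT over clone 5 (SE 0.09, adjusted p = 0.479 from edgeR), on opposite sides of 0. Over both clones it came to 0.02 (95% interval -0.33 to 0.37).

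SIRT2 deacetylates alpha-tubulin and other cytosolic proteins, and enters the nucleus in mitosis. It lies on chromosome 19 from 39369195 to 39390502 on the minus strand, with 16 exons in its canonical transcript. It had 640 counts (15.2 CPM) for WT 1, 622 (14.96 CPM) for WT 2, 446 (12.4 CPM) for clone 4 and 910 (21.9 CPM) for clone 5. Clone 5 was the high library, above both WT libraries, and clone 4 the low one. Clone 5 had 1.77 times the level of clone 4 (95% interval 1.34 to 2.33; log2 clone 4 over clone 5 -0.82, SE 0.19, adjusted p = 0.0082 by the quasi-likelihood test of edgeR), a difference that 12.8% of all genes tested exceeded. The log2 ratio was 0.28 for WT over clone 4 (SE 0.16, adjusted p = 0.327 from edgeR) and -0.54 for WT over clone 5 (SE 0.15, adjusted p = 0.0822 from edgeR), which placed clone 5 at 1.45 times WT (95% interval 1.15 to 1.83) without passing the adjusted threshold. Over both clones SIRT2 was at -0.19 (95% interval -0.89 to 0.52). In the annotation 40 exon bases of SIRT2 overlap NFKBIB on the other strand, and NFKBIB stood at 14.7, 15.3, 14.7 and 15.6 CPM in WT 1, WT 2, clone 4 and clone 5, with no such step between the clones.

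SIRT6 is a chromatin-bound deacylase of histone H3 known for its part in DNA repair and in restraining glycolytic genes. It lies on chromosome 19 from 4174106 to 4182563 on the minus strand, with 8 exons in its canonical transcript. It had 626 counts (14.8 CPM) for WT 1, 684 (16.5 CPM) for WT 2, 478 (13.3 CPM) for clone 4 and 750 (18.0 CPM) for clone 5. The order of the libraries was that of SIRT1 and SIRT2, with clone 4 lowest and clone 5 highest, but SIRT6 did not pass between the clones (log2 clone 4 over clone 5 -0.44, SE 0.19, adjusted p = 0.156 from edgeR). The interval of that ratio, clone 5 at 1.02 to 1.81 times clone 4, overlapped those of SIRT1 and SIRT2. Over both clones WT and NOCT-KO means were 15.7 and 15.6 CPM.

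Of the 7 members, 5 lay below both WT libraries in clone 4 (SIRT1, SIRT2, SIRT3, SIRT6 and SIRT7), an outcome that 40.1% of all genes tested showed. In clone 5, 3 lay above both WT libraries (SIRT1, SIRT2 and SIRT6), beside 37.2% of all genes, and 2 lay below both (SIRT3 and SIRT7), beside 37.9%. The pattern of SIRT1, SIRT2 and SIRT6, with clone 5 above and clone 4 below both WT libraries, was that of 14.3% of all genes. Both WT libraries lay above both clones for SIRT3 and SIRT7, as for 17.9% of all genes, and below both clones for 0 of 7, as for 16.4%.

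SIRT7 is the nucleolar sirtuin, which associates with RNA polymerase I at ribosomal RNA genes. It lies on chromosome 17 from 79869815 to 79879199 on the minus strand, with 10 exons in its canonical transcript. It had 746 counts (17.7 CPM) for WT 1, 710 (17.1 CPM) for WT 2, 538 (14.9 CPM) for clone 4 and 704 (16.9 CPM) for clone 5. Both clones lay below both WT libraries, clone 5 by a margin smaller than the gap between the WT libraries. The log2 ratio was 0.22 for WT over clone 4 (SE 0.16, adjusted p = 0.452 from edgeR) and 0.04 for WT over clone 5 (SE 0.16, adjusted p = 0.938 from edgeR), and 0.13 over both (95% interval -0.24 to 0.50). SIRT7 shares 105 exon bases with MAFG, annotated on the same strand, whose level was 176 to 191 CPM. How the authors assigned reads in such a stretch is not stated.

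SIRT3 is the main deacetylase of the mitochondrial matrix, acting on enzymes of fatty acid oxidation, the TCA cycle and the respiratory chain. It lies on chromosome 11 from 215030 to 236931 on the minus strand, with 7 exons in its canonical transcript. It had 740 counts (17.5 CPM) for WT 1, 738 (17.8 CPM) for WT 2, 484 (13.4 CPM) for clone 4 and 698 (16.8 CPM) for clone 5. Both clones lay below the WT pair, which was level, and clone 4 was the lowest. SIRT3 was the sirtuin with the largest log2 ratio of WT over clone 4, 0.39 (SE 0.16, adjusted p = 0.149 by the quasi-likelihood test of edgeR), which placed clone 4 at 0.761 of WT (95% interval 0.598 to 0.968) without passing. For clone 5 it was 0.07 (SE 0.16, adjusted p = 0.878 from edgeR), and over both clones 0.22 (95% interval -0.20 to 0.65). Between the clones the log2 ratio was -0.32 (SE 0.18, adjusted p = 0.309 from edgeR). SIRT3 overlaps RIC8A by 84 exon bases on the other strand. RIC8A was at 91.8, 101, 112 and 101 CPM in WT 1, WT 2, clone 4 and clone 5. It was highest where SIRT3 was lowest, but neither gene passed in any comparison with edgeR.

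SIRT4 is a mitochondrial sirtuin with weak deacetylase activity, known as an ADP-ribosyltransferase of glutamate dehydrogenase and a lipoamidase of pyruvate dehydrogenase. It lies on chromosome 12 from 120740119 to 120751052 on the plus strand, with 4 exons in its canonical transcript. It had 14 counts (0.332 CPM) for WT 1, 16 (0.385 CPM) for WT 2, 16 (0.444 CPM) for clone 4 and 14 (0.337 CPM) for clone 5. The groups overlapped. At these counts the 95% interval of WT over NOCT-KO ran from 0.328-fold to 2.58-fold. A difference of less than that was thus not detectable at this depth. The interval takes the counts as deposited, of which nearly all above 0 were even. With each count halved, SIRT4 did not pass the filter on low counts.

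SIRT5 removes succinyl, malonyl and glutaryl groups from mitochondrial proteins, with carbamoyl phosphate synthetase as its best known target. It lies on chromosome 6 from 13574459 to 13615390 on the plus strand, with 10 exons in its canonical transcript. It had 358 counts (8.49 CPM) for WT 1, 300 (7.22 CPM) for WT 2, 284 (7.88 CPM) for clone 4 and 314 (7.55 CPM) for clone 5. Both clones fell between the WT libraries, so WT 1 and WT 2 were themselves the highest and the lowest. The highest library was at 1.176 times the lowest, the smallest such ratio of the 7 members but close to that of SIRT7 (1.185). The log2 ratio was 0.00 for WT over clone 4 (95% interval -0.46 to 0.45), 0.06 for WT over clone 5 (-0.40 to 0.51) and 0.06 for clone 4 over clone 5 (-0.46 to 0.59). Of its annotated exon bases, 1058 overlap a non-coding gene on the other strand that was not analysed here.

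**Figure D3:**
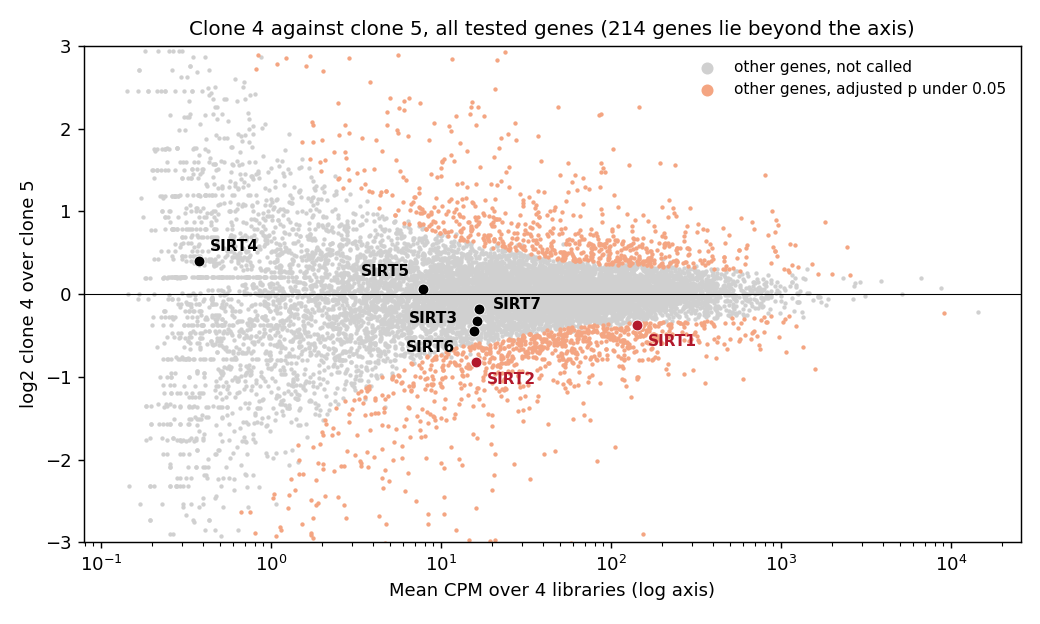
Log2 ratio of clone 4 over clone 5 against mean CPM over the 4 libraries (log axis) for all tested genes, with the 7 sirtuins named, those past the adjusted threshold in red, and 214 genes beyond the axis. SIRT1 and SIRT2 lie among the called genes below 0, at -0.37 and -0.82, and 5 of the 7 sirtuins lie below 0.

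The medians of the genes around SIRT1, SIRT2 and SIRT6 lay nearer to 0 than these sirtuins. Tested genes within 5 Mb had a median log2 ratio of clone 4 over clone 5 of -0.06 around SIRT1 (50 genes) and -0.03 around SIRT2 (156 genes), against -0.37 and -0.82 for the sirtuins. Of these neighbours 30% had a lower ratio than SIRT1 and 5.13% a lower one than SIRT2. Around SIRT6 the median was 0.02 over 181 genes, and 8.29% lay below SIRT6 at -0.44. The highest median was around SIRT5, 0.24 over 34 genes, where SIRT5 was at 0.06, but that median was -0.01 within 1 Mb (7 genes) and 0.10 within 10 Mb. Within 1 Mb the median around SIRT1 was -0.25 over 13 genes.

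One gene next to SIRT1 stood out. DNAJC12, a DnaJ family cochaperone whose gene lies 46467 bases from SIRT1, had 15.7, 13.0, 2.44 and 17.6 CPM for WT 1, WT 2, clone 4 and clone 5. It was lower in clone 4, with a log2 ratio of WT over clone 4 of 2.56 (adjusted p = 4.5e-06 from edgeR). HERC4, 3508 bases away on the other side of SIRT1, had a log2 ratio of clone 4 over clone 5 of -0.20 (adjusted p = 0.333 from edgeR). PSMD13 is a proteasome subunit gene 34 bases from SIRT3. It was at 120, 132, 140 and 132 CPM in WT 1, WT 2, clone 4 and clone 5. SIRT3 was lowest in clone 4, but neither gene passed in any comparison with edgeR.

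**Figure D4:**
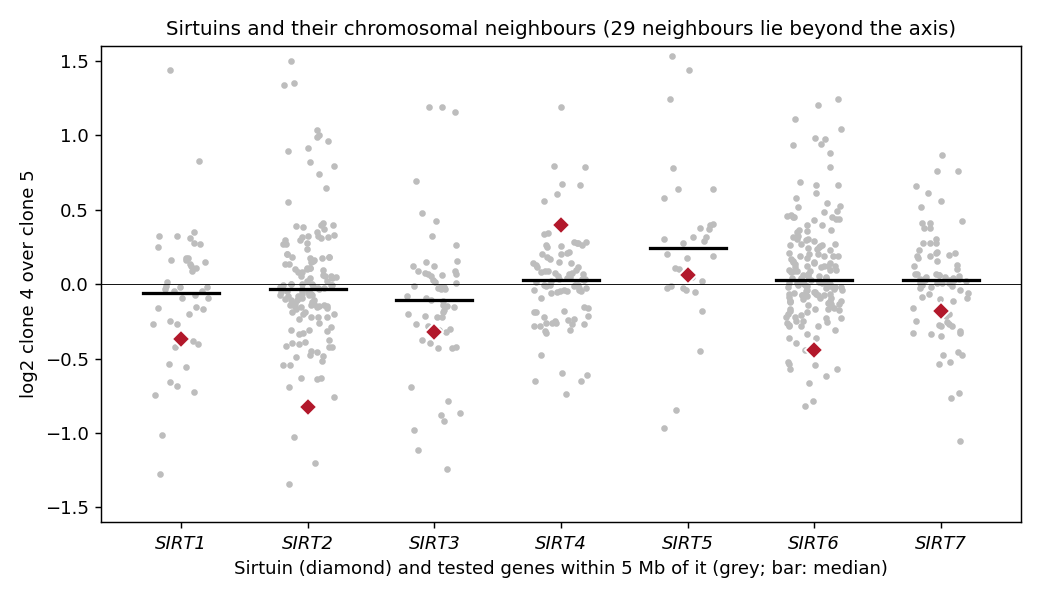
Log2 ratio of clone 4 over clone 5 for each sirtuin (diamond) and for the tested genes within 5 Mb of it (grey points, with their median as a bar), with 29 neighbours beyond the axis. SIRT2 at -0.82 lies below most of its 156 neighbours, while the medians lie between -0.11 and 0.24.

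The genes with the most similar pattern over the 4 libraries were found by the root mean square difference of log2 CPM, each gene centred on its own mean, among 10047 genes of at least 5 CPM. For SIRT1 these were C22orf29 (0.0090) and IFIT5 (0.0102), and 1487 genes lay within 0.1 of it. SIRT2 had the least common pattern, with 85 genes within 0.1, of which RHBDF1 (0.0166) and FYB (0.0229) were the nearest. The nearest to SIRT3 were SCN9A (0.0171) and UBL3 (0.0183), to SIRT6 RPP25 (0.0092) and MKNK1 (0.0137), to SIRT5 BAG2 (0.0091) and ERCC3 (0.0097), and to SIRT7 RFC3 (0.0056) and ATF2 (0.0065). Within 0.1 lay 760 genes for SIRT3, 901 for SIRT6, 2224 for SIRT5 and 2253 for SIRT7. With 4 libraries and this many near genes, closeness sets no gene apart from the others. SIRT4 was under 5 CPM and was left out.

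Around the sirtuins, the genes of their reaction were counted in the same fits. For WT against NOCT-KO edgeR called 0 genes in each list that follows, as over all genes, and so did DESeq2 and limma-voom. Among known regulators of sirtuins, 25 of 25 were tested, and 2 passed for WT against clone 4 (8%, beside 11.4% of all genes), both higher in clone 4. DYRK3, a kinase that activates SIRT1, was at 17.9, 17.5, 30.2 and 14.7 CPM in WT 1, WT 2, clone 4 and clone 5 (log2 WT over clone 4 -0.77, adjusted p = 0.0028 from edgeR). NAMPT, the rate-limiting enzyme of NAD+ salvage, was at 116, 115, 144 and 130 CPM (log2 WT over clone 4 -0.32, adjusted p = 0.0408 from edgeR and 0.0766 from DESeq2). Between the clones 1 passed, DYRK3 (4%, beside 13.1% of all genes), and for clone 5 against WT 0 did, beside 3.51%. At an unadjusted p under 0.05 there was 1 of 25 for clone 5 against WT, beside 2056 of all 13143 genes. DESeq2 and limma-voom called 0 there. The medians of the list, -0.04 for WT over clone 4 and 0.05 for clone 4 over clone 5, stood beside 0.01 and 0.00 over all genes.

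Known substrates were described in 2 lists by compartment. Of 43 nuclear and cytosolic substrates 41 were tested, and 7 passed for WT against clone 4 (17.1%, beside 11.4% of all genes). Of these, 4 were lower and 3 higher in clone 4. Higher in clone 4 were EPAS1 (458, 505, 886 and 469 CPM in WT 1, WT 2, clone 4 and clone 5; log2 WT over clone 4 -0.88), ELK4 (-0.64) and HIF1A (-0.61). EPAS1 and HIF1A encode hypoxia-inducible factor subunits that SIRT1 deacetylates, and ELK4 directs SIRT7 to promoters. Lower in clone 4 were genes that included MAP1LC3B, an autophagosome protein (0.96), NKAP (0.98) and TUBA1A, an alpha-tubulin (0.65). HIF1A, NKAP and TUBA1A were named after their values were seen. Between the clones 8 passed (19.5%, beside 13.1% of all genes), and for clone 5 against WT 0 did, beside 3.51%. At an unadjusted p under 0.05 there were 3 of 41 for clone 5 against WT, beside 2056 of all 13143 genes. DESeq2 and limma-voom called 0 there.

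Of 38 mitochondrial substrates 34 were tested, with 5 past the threshold for WT against clone 4 (CPS1, GOT2 and MLYCD lower in clone 4, FH and PDP1 higher), 1 for WT against clone 5 (CPS1) and the same 5 between the clones. These shares of 14.7%, 2.94% and 14.7% were close to the 11.4%, 3.51% and 13.1% of all genes. CPS1, the carbamoyl phosphate synthetase that SIRT5 activates, was at 718, 778, 292 and 594 CPM for WT 1, WT 2, clone 4 and clone 5, lowest in clone 4. Its log2 ratio was 1.36 for WT over clone 4 (adjusted p = 7.4e-08) and 0.33 for WT over clone 5 (adjusted p = 0.0308, both from edgeR). GOT2, the mitochondrial aspartate aminotransferase and a SIRT3 target, was at 384, 365, 284 and 430 CPM in WT 1, WT 2, clone 4 and clone 5, the same order of libraries as SIRT1. FH, MLYCD and PDP1 were named after their values were seen, and DESeq2 did not call MLYCD or PDP1 for clone 4 (adjusted p = 0.0828 and 0.083), nor did limma-voom call MLYCD there (0.0978). Between the clones the call of PDP1 was lost with DESeq2 (adjusted p = 0.196) and limma-voom (0.0534).

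The other enzymes that set lysine acetylation were called in 9.09% (histone deacetylases) and 5.26% (acetyltransferases) of cases for WT against clone 4, beside 11.4% of all genes, and in 0% and 5.26% between the clones, beside 13.1%. Of 11 zinc-dependent histone deacetylases, 1 passed for clone 4 against WT, HDAC9. It was at 1.14, 0.914, 3.22 and 1.68 CPM for WT 1, WT 2, clone 4 and clone 5. The HDAC9 call was lost with DESeq2 (adjusted p = 0.147). For clone 5 against WT, where 3.51% of all genes passed, and between the clones 0 of 11 passed. At an unadjusted p under 0.05 there were 0 in both, beside 2056 and 3333 of all 13143 genes. DESeq2 and limma-voom called 0 in both. Of 19 acetyltransferases tested, 1 passed for clone 4 and between the clones, KAT8, the histone H4 acetyltransferase of the MSL and NSL complexes. For clone 5 against WT 0 passed, beside 3.51% of all genes. At an unadjusted p under 0.05 there were 2 of 19 for clone 5, beside 2056 of all 13143 genes. DESeq2 and limma-voom called 0 there. KAT8 stood at 43.0, 46.2, 30.1 and 53.5 CPM for the libraries in the same order, with clone 4 below and clone 5 above both WT libraries as for SIRT1, SIRT2 and SIRT6.

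Among 17 other NAD+-consuming enzymes tested, BST1 and PARP6 fell in clone 4, TIPARP rose in clone 5, and PARP11, PARP4 and TIPARP differed between the clones, each higher in clone 5. These were 11.8%, 5.88% and 17.6% of the list, beside 11.4%, 3.51% and 13.1% of all genes. TIPARP, a mono-ADP-ribosyltransferase, was at 105, 106, 96.1 and 143 CPM in WT 1, WT 2, clone 4 and clone 5 (log2 WT over clone 5 -0.44, adjusted p = 0.0155 from edgeR). DESeq2 did not call PARP11 or PARP4 (adjusted p = 0.119 and 0.0846). The calls of BST1 and PARP6 were lost with DESeq2 (adjusted p = 0.157 and 0.14) and with limma-voom (0.0525 and 0.0528). Of 16 genes of NAD+ supply tested, 3 passed for clone 4 (NAMPT higher, QPRT and NNT lower than in WT), 2 for clone 5 (NNT higher, TDO2 lower) and 2 between the clones (NNT and NNMT). These were 18.8%, 12.5% and 12.5% of the list, beside the same 11.4%, 3.51% and 13.1% of all genes. NNT, the mitochondrial transhydrogenase that forms NADPH with electrons from NADH, was at 30.6, 27.6, 19.7 and 46.5 CPM for WT 1, WT 2, clone 4 and clone 5. It passed in both directions from WT, lower in clone 4 (log2 WT over clone 4 0.56, adjusted p = 0.0178 from edgeR) and higher in clone 5 (log2 WT over clone 5 -0.68, adjusted p = 0.0079 from edgeR). The call for clone 4 was lost with DESeq2 (adjusted p = 0.0512), and in the fit with no filter both were lost (adjusted p = 0.126 for clone 4 and 0.2 for clone 5). The calls for clone 5 of CPS1, TIPARP and TDO2 were lost there too (adjusted p = 0.282, 0.203 and 0.202 from edgeR).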

How the data were processed

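Poly-A+ RNA of 4 A549 libraries was sequenced on an Illumina platform. Raw counts per gene symbol, not normalized, were deposited by the authors after mapping to hg19. TopHat2 and HTSeq are named, with no version, in the submitters' processing notes. For annotation, strand setting and read filters, the sources used here give nothing. Between 99.1% and 99.2% of counts above 0 were even in each library, and the cause was not tested. Lines with a date in place of a symbol (28, 0.274% of counts) were left out, and 0 count columns were left aside. The WT pair were not 1 set of reads (chi-square of 13.4 per gene on halved counts).

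Counts were filtered (edgeR filterByExpr, minimum count 10, minimum total 15), TMM-scaled and tested over all 13143 genes by edgeR 4.0.16's quasi-likelihood test (R 4.3.3) with Benjamini-Hochberg adjustment at 0.05. One fit had 2 groups (2 residual degrees of freedom, biological coefficient of variation 19.7%) and 1 had 3 groups (WT, clone 4, clone 5; 1 residual degree of freedom, 8.33%), which assumes that a clone varies like the WT pair. limma 3.58.1 and DESeq2 1.42.0 served as alternatives, with other scalings, no filter, halved counts, each library left out, and other lengths and windows. The scripts were tested on simulated data. Positions, exons and overlaps are from GENCODE 44 lifted to hg19, which matched 19556 symbols as given and 1908 by an older symbol, with 1876 unmatched. Promoters are from RefSeq, for 6 of 7 members.

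The members and gene lists were chosen with earlier results of these data known. Named besides the sirtuins were NOCT, genes overlapping or next to a sirtuin, the 2 genes nearest in pattern, and of each list the 3 members with the smallest p for WT against NOCT-KO and the 2 for each other comparison; the text gives a part of these, and 1 gene is not reported here. An exact permutation test of 2 against 2 libraries cannot go below p = 0.333, so none was used. Reads were not independent molecules, and the precision of each value is limited by its counts.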

Additional observations from a re-analysis of the deposited data

Results flagged for a closer look

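SIRT1 and SIRT2 had log2 ratios of -0.37 and -0.82 for clone 4 over clone 5. Both were singled out because they passed the test of the difference between the 2 clones of the same knockout, with WT between them. Each clone was 1 library, so that test took its spread from the WT pair. Without the filter on low counts both calls were lost, and with DESeq2 that of SIRT1 was lost. For SIRT1 the 4 libraries stood at 143, 142, 123 and 158 CPM (WT 1, WT 2, clone 4, clone 5), and for SIRT2 at 15.2, 14.96, 12.4 and 21.9 CPM. Between the clones 13.1% of all genes passed the same test. The clones also differed in depth (36873556 and 41963070 counts) and in COL3A1 (26.7 and 199 CPM), and the part of these in the SIRT1 and SIRT2 values was not tested.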

How the results depend on the processing

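Among 205 alternative fits of the sirtuins' log2 ratios that give a test, 190 kept their direction and their side of the threshold, 12 changed sign and 3 lost the call. Leaving out a WT library in the clone comparisons leaves no residual degrees of freedom, so these values have no test, those of SIRT1 and SIRT2 between the clones included. With SIRT4 for WT against clone 5, for which DESeq2 gave no adjusted p, that makes 43 values. Of the 43, 3 changed sign: SIRT5 without WT 2 (0.11 for WT over clone 4) and without WT 1 (-0.07 for WT over clone 5), and SIRT4 without WT 2 (-0.02 for WT over clone 5). The 3 lost calls were all between the clones. Without the filter on low counts SIRT1 had an adjusted p of 0.124 and SIRT2 of 0.0693 from edgeR. With DESeq2 SIRT1 had 0.0663, while SIRT2 held at 0.0384. Sirtuins called between the clones were thus 0 without the filter and 1 with DESeq2, against 2. No sirtuin was called for WT against NOCT-KO or either clone in any alternative with a test. No ratio that changed sign was called. For WT over NOCT-KO, leaving out each library in turn gave -0.16 to 0.21 for SIRT1 (negative without clone 4), -0.54 to 0.28 for SIRT2 (positive without clone 5), -0.31 to 0.087 for SIRT4, -0.10 to 0.14 for SIRT5 and -0.21 to 0.23 for SIRT6. For SIRT6, at -0.0005, library totals gave 0.043, no filter 0.00078, halved counts 0.00068 and limma-voom 0.0045, and for SIRT5 library totals gave 0.050 for WT over clone 4. Genes called for WT against NOCT-KO were 42 with DESeq2 and, leaving out a library, 0 to 1187 (363 without clone 4, 1187 without clone 5). For WT against clone 4 they were 366 without the filter and 955 with DESeq2, against 1502, for WT against clone 5 they were 29 and 298, against 461, and between the clones 496 and 1139, against 1723. The no-filter fit tested 15805 lines; the cause of these shifts was not tested. Without the filter, calls for WT against clone 4 were 4 of 41 nuclear and cytosolic substrates (7 with it), 1 of 34 mitochondrial ones (5 with it) and 0 in the other sirtuin-related lists, and for WT against clone 5 they were 0 in each of these lists. Scaling by library totals moved the median of all genes by under 0.1 on the log2 scale. With halved counts SIRT4 did not pass the filter. No paired analysis was possible because WT and NOCT-KO share no replicate number. Counts limit SIRT4 most, at 14 to 16 per library.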
